A study of Mus musculus with 6 samples.

Results

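Cadherins and protocadherins are the members of the cadherin superfamily whose mouse symbol is Cdh with a number or begins with Pcdh. The protein-coding genes that carry such a symbol numbered 92 of the 51826 genes in each deposited table and of the 21793 that are protein-coding. They comprise 5 type I classical cadherins, 13 type II classical cadherins, 5 atypical cadherins, 4 delta-1 protocadherins, 5 delta-2 protocadherins, 3 other non-clustered protocadherins and 57 clustered protocadherins. The clustered genes divide into 14 of the alpha, 22 of the beta and 21 of the gamma cluster. Symbols were joined to the files by Ensembl number, and 1 further matching symbol, the polymorphic pseudogene Pcdhgb8, is not protein-coding and was left out.

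The RNA of 6 cultures of mouse embryonic fibroblasts was sequenced: 3 Lztr1 +/- cultures (11, 15 and 18) and 3 wild-type Lztr1 +/+ cultures (10, 12 and 16). LZTR1 is a substrate adaptor of a ubiquitin ligase that acts on RAS-family GTPases, and the comparison asks what the loss of 1 Lztr1 copy does to the transcriptome. All cultures were of C57BL/6 background, carried the same passage range in the labels, grew in the same medium and received no treatment. How the Lztr1 allele was disrupted is not stated in the sources used here. Nor do the labels tie each culture to its own embryo, and the p-values cover only the spread among the cultures, which may be technical.

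Cadherins are transmembrane adhesion receptors whose extracellular repeats bind calcium and pair with cadherins on the next cell. The tails of the classical cadherins hold beta-catenin and p120-catenin, and through alpha-catenin they reach the actin cytoskeleton at the adherens junction; N-cadherin and cadherin-11 are the classical types known for fibroblasts and other mesenchyme. Delta protocadherins lack catenin-binding tails, and the clustered protocadherins, best known for giving neurons a surface identity, are made from many variable first exons, of which the alpha and gamma sets are joined to shared last exons.

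Library totals were 21885101, 14445884 and 11028854 expected counts in Lztr1 +/- cultures 11, 15 and 18, and between 11025286 and 14030349 in the wild-type cultures. Lztr1 itself stood at 35.87, 28.28 and 32.23 TPM in the Lztr1 +/- cultures, against 63.99, 63.61 and 56.74 TPM in the wild-type cultures (log2 difference in counts −1.01, SE 0.066, edgeR Benjamini-Hochberg adjusted p 0.00457). TPM is the authors' relative transcript abundance, scaled for gene length and library. All 12 fibroblast markers examined were at 1 TPM or more, with a summed level of 10771 to 13265 TPM, and none of 5 germ-cell and early-embryo markers was. Markers of other cell types were present as well. The 9 macrophage and blood markers summed to 246 to 437 TPM in Lztr1 +/- cultures and 299 to 397 TPM in wild-type cultures, and other lineages are given below. The level of a member therefore cannot be credited to fibroblasts alone. Both genotypes include cultures with Xist and without Y-linked transcripts and cultures with the reverse. Wild-type culture 16 stood apart for the members, and its effect is given beside the results it touches most. Among the 55 at a mean of 1 TPM or more it was lowest for 31, 19 of them gamma genes with shared last exons. Its counts lay nearer to the Lztr1 +/- cultures (chi-square over its degrees of freedom 5.44 to 7.36) than to wild-type cultures 10 and 12 (10.9 and 12.8). Lztr1 +/- culture 11 and wild-type culture 16 were registered later than the other cultures. The labels do not name this division as a batch.

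The fibroblast cultures held transcripts of much of the superfamily, but a few genes supplied most of them. Of the 92 members, 55 had a mean of 1 TPM or more over the 6 cultures, 47 reached that level in every culture and 9 had a mean of 10 TPM or more. The expressed share, 59.8%, equals that of all protein-coding genes. The summed level of all members lay between 780.8 and 918.35 TPM per culture. Cdh11 alone made up 33.5% to 36.2% of it, and the 9 most abundant members made up 77.1% to 81.3%. These 9 were Cdh11, Pcdhgc3, Cdh2, Pcdh18, Cdh3, Pcdhgc4, Pcdh7, Pcdh9 and Pcdh19. Just above the level of 1 TPM were Pcdhb5 (1.09 TPM), Pcdhb9 (1.08 TPM) and Pcdhb19 (1.05 TPM), and just under it were Pcdhb16 (0.958 TPM), Cdh18 (0.913 TPM) and Pcdhb3 (0.863 TPM). Pcdhb1 had no count in any culture.

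**Figure D1:**
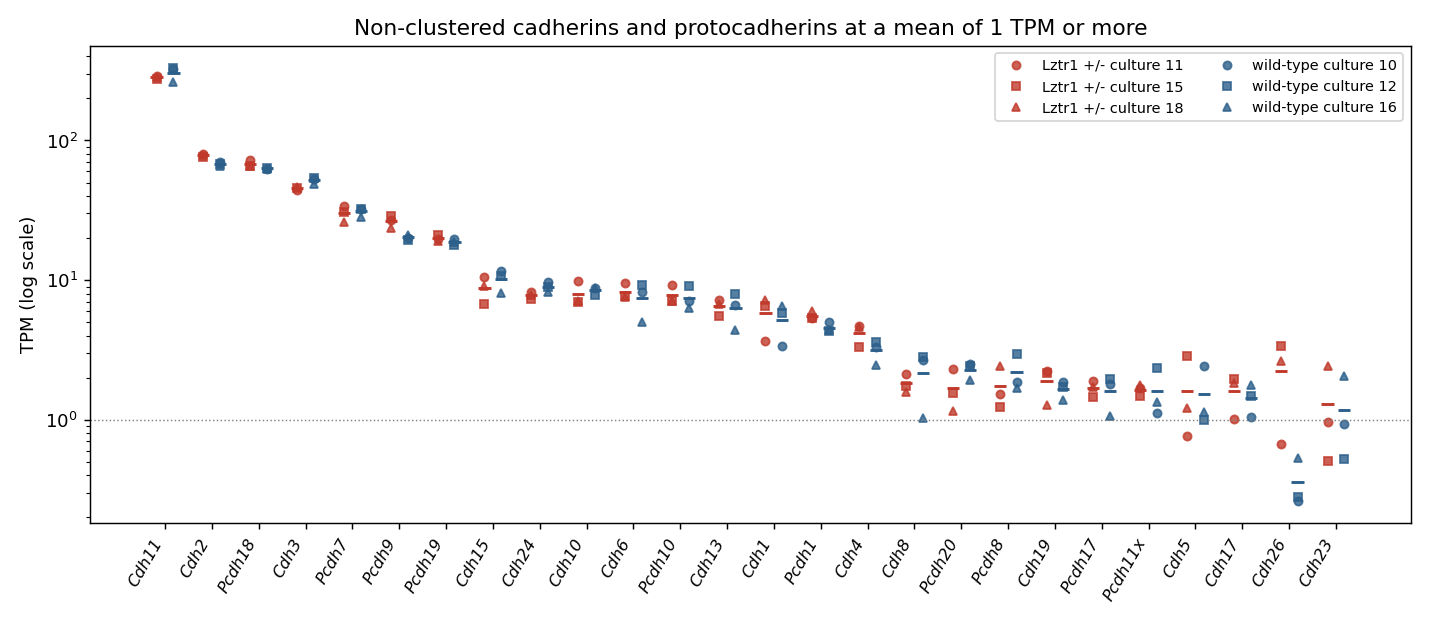
TPM (log scale) of the 26 non-clustered members with a mean of 1 TPM or more, by culture; each symbol is 1 culture, the short bars are genotype means, and the dotted line marks 1 TPM. Cdh11 stands well above all others, and the genotypes' points are apart for Cdh2 and Cdh26 and mixed for most genes.

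No cadherin or protocadherin passed the test between genotypes. Of the 71 members with enough counts to be tested, 0 were called by edgeR's quasi-likelihood test at a Benjamini-Hochberg adjusted p under 0.05, against 1 gene, Lztr1, of all 14652 tested (0.00683%). At an unadjusted p under 0.05, 6 members were higher in Lztr1 +/- cultures (8.45%; background 5.56% of all tested genes) and 5 were lower (7.04%; background 6.65%). The groups' CPM values, counts relative to the TMM-scaled library total, did not overlap for 8 members that were higher in Lztr1 +/- (11.3%; background 7.75%) and for 9 that were lower (12.7%; background 9.97%). These shares are near the background. DESeq2 called 1 member, Cdh2 (112 genes called in all, 0.764%), and edgeR without wild-type culture 16 called the same member (896 genes in all, 5.93%). With no low-count filter edgeR called 0 members (32 genes in all, 0.127%). Unless another method is named, log2 differences below are from edgeR's fit to the counts, Lztr1 +/- minus wild-type, with the standard error (SE) where given. Values within a run of culture numbers or a registration group are instead differences of mean log2 CPM without SE. Such values rest on 1 culture of at least 1 genotype, except among the earlier registered cultures. The median edgeR log2 difference was −0.04 over the tested members and −0.0018 over all tested genes, and for 49 of the 71 members the 95% interval lay within −1 and 1.

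**Figure D2:**
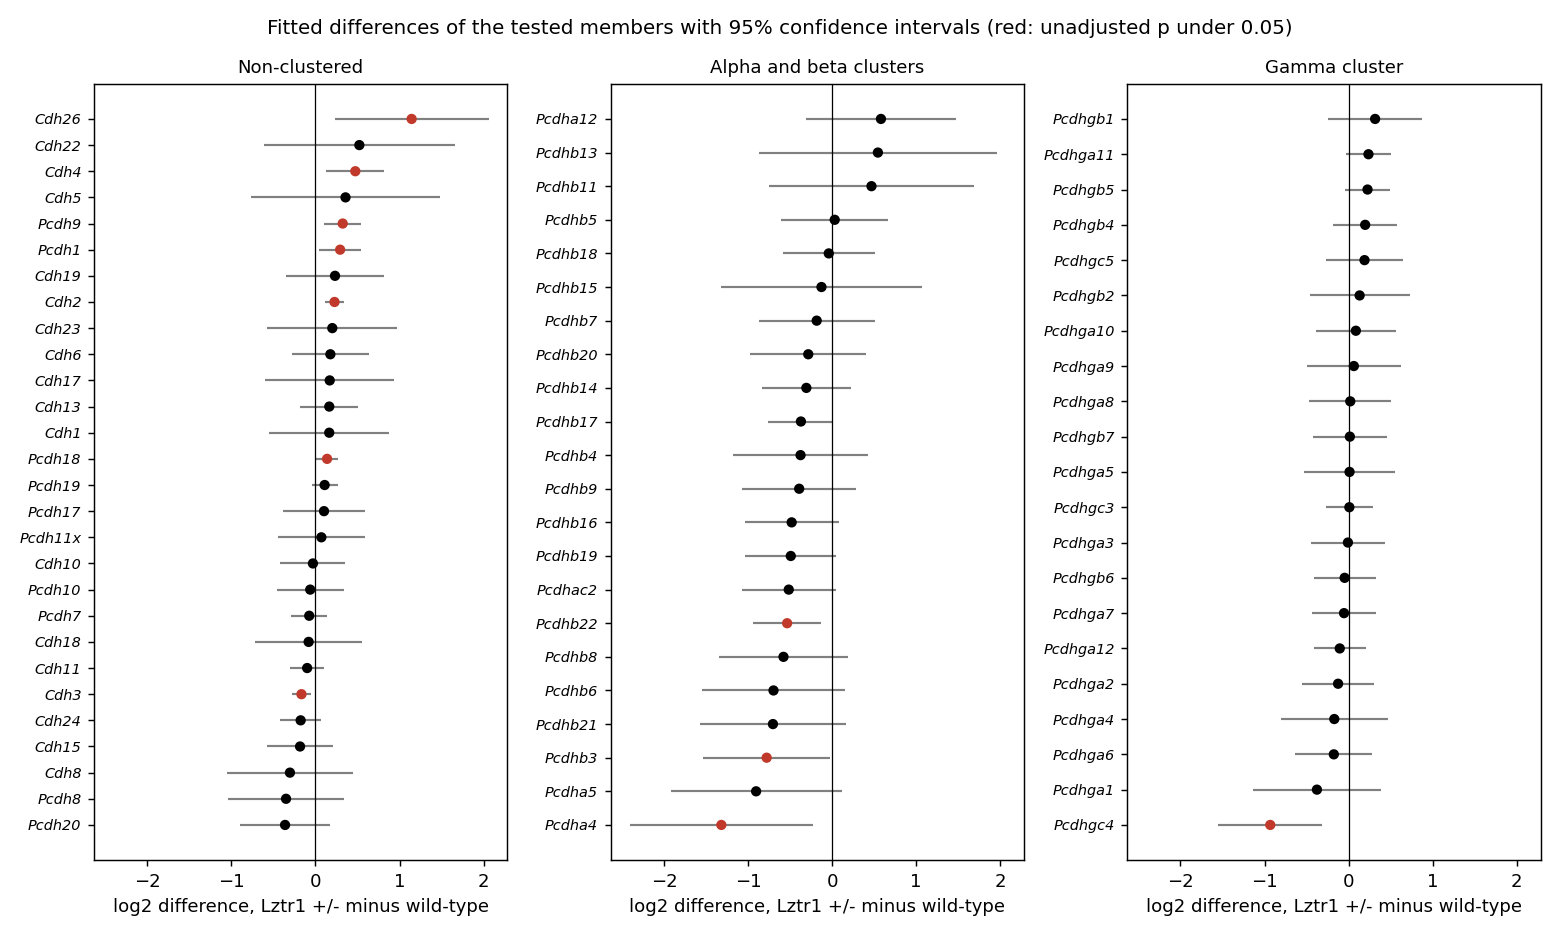
Log2 difference (Lztr1 +/- minus wild-type, edgeR) of the 71 tested members with 95% confidence intervals, in 3 panels by family; red marks an unadjusted p under 0.05. Non-clustered genes lie on both sides of 0, 15 of 18 tested beta genes lie below it, and Pcdhgc4 is the lowest gamma gene.

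The 5 type I classical cadherins, the catenin-binding receptors of adherens junctions, were all expressed. The difference that came closest to a call was that of Cdh2, N-cadherin. Cdh2 stood at 79.73, 76.08 and 78.85 TPM in Lztr1 +/- cultures, against 70.04, 67.56 and 66.03 TPM in wild-type cultures. Every Lztr1 +/- culture was above every wild-type culture, and the values within a genotype were close together. The log2 difference was 0.23 (SE 0.051, 95% interval 0.11 to 0.34), with an adjusted p of 0.313 by edgeR with Benjamini-Hochberg adjustment. It was 0.0430 with DESeq2 and 0.0426 with edgeR without wild-type culture 16. Among cultures numbered 10 to 12 the log2 difference of Cdh2 was 0.26, and among those numbered 15 to 18 it was 0.21.

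Cdh3, P-cadherin, known mainly from epithelia, had a difference of the opposite sign that did not pass the test. It had 44.1, 45.8 and 46.67 TPM in Lztr1 +/- cultures and 53.17, 53.68 and 48.41 TPM in wild-type cultures, with no overlap (log2 difference −0.17, SE 0.050, edgeR Benjamini-Hochberg adjusted p 0.317). Cdh4, R-cadherin, first known from the retina, was lower in level at 4.66, 3.31 and 4.65 TPM in Lztr1 +/- cultures, against 3.33, 3.62 and 2.48 TPM in wild-type cultures. Its CPM values did not overlap although the TPM values did, and the log2 difference was 0.47 (SE 0.149, edgeR Benjamini-Hochberg adjusted p 0.321). The summed TPM of all 5 type I genes was 138.54 to 146.41 in Lztr1 +/- cultures and 131.55 to 141.45 in wild-type cultures.

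The remaining type I genes, Cdh1 and Cdh15, and the type II gene Cdh5 are cadherins of other lineages, and their levels spread widely within each genotype. Cdh1, E-cadherin of epithelia, had 3.68, 6.57 and 7.23 TPM in Lztr1 +/- cultures and 3.36, 5.77 and 6.50 TPM in wild-type cultures. Cdh15, M-cadherin of skeletal muscle and its satellite cells, had 10.47, 6.78 and 9.01 TPM in Lztr1 +/- cultures and 11.55, 10.65 and 8.13 TPM in wild-type cultures. Cdh5, VE-cadherin of endothelium, had 0.77, 2.87 and 1.21 TPM in Lztr1 +/- cultures and 2.44, 0.99 and 1.13 TPM in wild-type cultures. The genotypes overlapped for all 3 genes. The log2 differences were 0.16 (SE 0.311) for Cdh1, −0.18 (SE 0.170) for Cdh15 and 0.36 (SE 0.486) for Cdh5, and the edgeR Benjamini-Hochberg adjusted p was between 0.681 and 0.859. Without Lztr1 +/- culture 15 the sign of Cdh5 reversed (−0.39), and without wild-type culture 10 that of Cdh1 did (−0.08). The log2 difference of Cdh15 was −0.039 without Lztr1 +/- culture 15 and −0.34 without Lztr1 +/- culture 11. By registration, that of Cdh1 was 0.69 among the earlier cultures and −0.87 between the later cultures 11 and 16.

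Each of these 3 was set beside the summed TPM of markers of its cell type, lists that hold no cadherin. The 12 epithelial markers, 9 of them at 1 TPM or more, summed to 140, 214 and 282 TPM in Lztr1 +/- cultures and 134, 173 and 219 TPM in wild-type cultures. By mean TPM, Krt18 (67.5) and Krt8 (51.7) weighed most in this sum. Over the 6 cultures Cdh1 followed the sum with Pearson's r of 0.925 (exact permutation p 0.00556, adjusted over the 3 relations 0.00833) and Spearman's rho of 0.943 (exact permutation p 0.0167, adjusted 0.025). Leaving out the 2 cultures farthest from the median gave an r of 0.95. Krt8 and Krt18 were highest, at 85.77 and 97.91 TPM, in Lztr1 +/- culture 18, where Cdh1 was highest too. Not every single marker rose with Cdh1. Krt19, at a mean of 29.3 TPM, was highest in Lztr1 +/- culture 11 (39.56 TPM) and stood at 25.84 TPM in culture 18. Cldn7 was lowest in culture 18 (1.05 TPM), and Ocln was highest in culture 11 (1.59 TPM). Trp63 was highest, at 2.38 TPM, in wild-type culture 10, where Cdh1 was lowest. The 10 muscle markers, 8 of them at 1 TPM or more, summed to 528, 385 and 509 TPM in Lztr1 +/- cultures and 610, 567 and 402 TPM in wild-type cultures. Actc1, at a mean of 263 TPM, weighed most in that sum. Cdh15 followed the sum with an r of 0.964 (exact permutation p 0.00278, adjusted 0.00833) and a rho of 1 (exact permutation p 0.00278, adjusted 0.00833), and an r of 0.912 without the 2 farthest cultures. The endothelial markers, 6 of 10 at 1 TPM or more, summed to 17.6 to 23.1 TPM in Lztr1 +/- cultures and 19.9 to 23.5 TPM in wild-type cultures, and Cdh5 gave an r of 0.483 (exact permutation p 0.353, adjusted 0.353) and a rho of 0.314 (exact permutation p 0.564, adjusted 0.564), with an r of 0.513 without the 2 farthest cultures. In bulk cultures more cells of a type and more RNA per cell cannot be told apart.

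**Figure D3:**
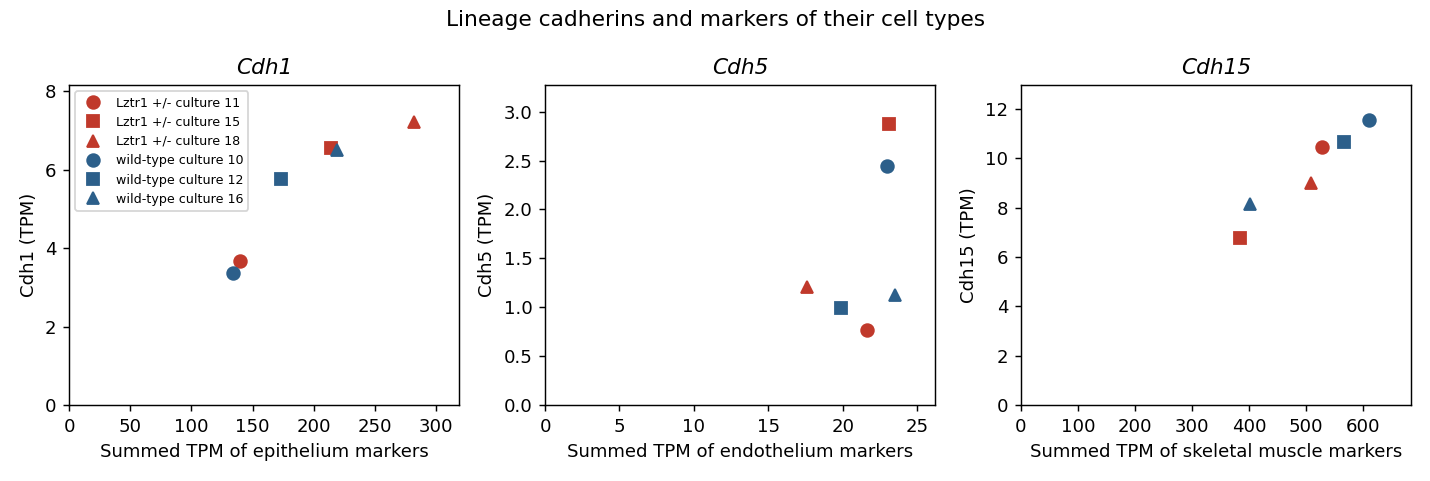
TPM of Cdh1, Cdh5 and Cdh15 (vertical axes) against the summed TPM of epithelial, endothelial and skeletal muscle markers (horizontal axes); each point is 1 culture, red for Lztr1 +/- and blue for wild-type. Cdh1 and Cdh15 climb with their marker sums across both genotypes, and Cdh5 shows no such order.

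Type II classical cadherins were led by Cdh11 (chromosome 8, 102632095 to 102785642 on the minus strand in mm10), the OB-cadherin of osteoblasts and mesenchyme and the most abundant member in every culture. Cdh11 had 290.4, 276.46 and 282.76 TPM in Lztr1 +/- cultures, against 322.47, 332.28 and 262.61 TPM in wild-type cultures. The wild-type cultures spanned the Lztr1 +/- ones, and the log2 difference was −0.10 (SE 0.089, 95% interval −0.30 to 0.11, edgeR Benjamini-Hochberg adjusted p 0.671). Culture 16 alone was below the Lztr1 +/- cultures, and without it the log2 difference was −0.19 (SE 0.044, edgeR Benjamini-Hochberg adjusted p 0.0508), while it was −0.039 without culture 12 and −0.048 without culture 10. It was −0.15 among cultures 10 to 12 and 0.09 among cultures 15 to 18, so its sign was not the same in both runs of culture numbers. By registration it was −0.22 among the earlier cultures and 0.16 between the later cultures 11 and 16.

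The other 6 expressed type II genes were at under 10 TPM on average, and none had an unadjusted p under 0.05. Cdh24, which in human cells binds catenins, had 8.26, 7.30 and 7.79 TPM in Lztr1 +/- cultures and 9.62, 8.88 and 8.22 TPM in wild-type cultures, with CPM values that did not overlap (log2 difference −0.18, SE 0.104). Cdh6, K-cadherin, first known from the kidney, had 9.51, 7.73 and 7.58 TPM in Lztr1 +/- cultures and 8.26, 9.18 and 5.01 TPM in wild-type cultures. Cdh10, best known from neurons, had 9.87, 6.97 and 7.04 TPM in Lztr1 +/- cultures and 8.72, 7.88 and 8.73 TPM in wild-type cultures. Both sets overlapped. Cdh8, a cadherin of neural circuits, had 2.14, 1.75 and 1.57 TPM in Lztr1 +/- cultures and 2.70, 2.81 and 1.03 TPM in wild-type cultures. Cdh19, known from neural crest derivatives such as Schwann cell precursors, had 2.25, 2.15 and 1.28 TPM in Lztr1 +/- cultures and 1.85, 1.73 and 1.39 TPM in wild-type cultures. Those values overlapped as well, and beside them 10 of 11 neural and Schwann-cell markers were at 1 TPM or more, summing to 151.6, 135.3 and 184.2 TPM in Lztr1 +/- cultures and 147.8, 127.5 and 88.8 TPM in wild-type cultures, whose part in the levels was not tested. The type II genes Cdh7, Cdh9, Cdh12, Cdh18, Cdh20 and Cdh22 had means under 1 TPM.

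Of the atypical cadherins, Cdh13 was the most abundant. T-cadherin, its product, is held in the membrane by a lipid anchor and binds adiponectin. Cdh13 had 7.23, 5.58 and 6.76 TPM in Lztr1 +/- cultures and 6.61, 7.98 and 4.40 TPM in wild-type cultures. Wild-type cultures were both the highest and the lowest. Cdh17, of intestinal epithelium, had 1.01, 1.97 and 1.82 TPM in Lztr1 +/- cultures and 1.04, 1.47 and 1.76 TPM in wild-type cultures, and Cdh23, of the tip links of hair cells, lay between 0.51 and 2.41 TPM over all cultures.

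Cdh26 had the highest log2 difference of all tested members, from few reads. It had 0.67, 3.37 and 2.63 TPM in Lztr1 +/- cultures, against 0.26, 0.28 and 0.53 TPM in wild-type cultures. Behind these values were 24, 23 and 13 counts in Lztr1 +/- cultures and 6, 5 and 10 counts in wild-type cultures. The groups did not overlap. The log2 difference was 1.14 (SE 0.397, 95% interval 0.23 to 2.06, edgeR Benjamini-Hochberg adjusted p 0.340). The length that RSEM averaged for the gene ran between 937 and 2891 bases over the cultures, so its TPM depends on which isoform the reads were given to, and with that length as an offset the log2 difference was 2.44 (SE 0.705).

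The 9 delta protocadherins were expressed throughout, and 4 of them were among the 9 most abundant members. For 3 of these 4 the 250 bases upstream of the RefSeq start are shown, as promoters of abundant delta genes. The window of the fourth, Pcdh7, is not printed because 114 of its bases lie inside the gene as GENCODE annotates it (9 for Pcdh18, 10 for Pcdh9 and 0 for Pcdh19). Capitals mark the CCAAT box, spelled by its name, and the GC box, GGGCGG, searched on both strands, so that a match on the other strand is printed as its reverse complement.
Pcdh18, chr3:49757317-49757566, minus strand: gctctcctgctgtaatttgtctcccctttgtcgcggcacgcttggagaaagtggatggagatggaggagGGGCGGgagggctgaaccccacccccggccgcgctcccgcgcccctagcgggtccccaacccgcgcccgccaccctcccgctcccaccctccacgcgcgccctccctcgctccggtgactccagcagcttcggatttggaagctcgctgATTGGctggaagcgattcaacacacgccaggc
Pcdh9, chr14:93890670-93890919, minus strand: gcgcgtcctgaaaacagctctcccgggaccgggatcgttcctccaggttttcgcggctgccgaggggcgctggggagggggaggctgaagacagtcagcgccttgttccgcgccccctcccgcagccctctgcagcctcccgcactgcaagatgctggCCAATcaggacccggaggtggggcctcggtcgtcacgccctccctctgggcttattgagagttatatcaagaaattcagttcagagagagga
Pcdh19, chrX:133688994-133689243, minus strand: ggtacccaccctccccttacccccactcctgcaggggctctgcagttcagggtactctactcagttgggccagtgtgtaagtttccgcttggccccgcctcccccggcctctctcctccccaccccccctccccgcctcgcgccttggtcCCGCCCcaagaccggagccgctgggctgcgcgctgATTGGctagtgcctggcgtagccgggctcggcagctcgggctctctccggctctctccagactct
These windows are RefSeq's on GRCm38.p6. CCAAT lies 32, 92 and 65 bases before the start of Pcdh18, Pcdh9 and Pcdh19, and GGGCGG lies 181 bases before the start of Pcdh18 and 100 before that of Pcdh19. The Pcdh7 window held neither, nor the other motifs searched, and had 7 CpG dinucleotides. Windows were at hand for 22 non-clustered members, 25 windows in all, with 3 for Cdh7 and 2 for Pcdh9 that are offset by 10 bases. CCAAT, which like GGGCGG was chosen after the sequences were seen, was in 15 of these 25 (14 of the 22 members) and in 33.8% of the 32851 windows of all genes; GGGCGG was in 9 of the 25 and in 32.7% of all. The E-box CAGGTG was in 3 of the 25 (17.2% of all) and TATAAA was in 2 (12.4% of all). CpG dinucleotides numbered a median of 10 per window of the members, against 6 over all windows.

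Among the delta-1 genes, Pcdh9, a protocadherin known mainly from the brain, had the largest log2 difference, which did not pass the test. Pcdh9 had 26.87, 28.83 and 23.45 TPM in Lztr1 +/- cultures, against 20.03, 19.46 and 21.13 TPM in wild-type cultures. The groups did not overlap. The log2 difference was 0.32 (SE 0.096, 95% interval 0.10 to 0.54, edgeR Benjamini-Hochberg adjusted p 0.315), and it was 0.42 among cultures 10 to 12 and 0.24 among cultures 15 to 18. Pcdh1, a protocadherin of airway epithelium in humans, had 5.35, 5.34 and 5.98 TPM in Lztr1 +/- cultures and 4.98, 4.32 and 4.38 TPM in wild-type cultures (log2 difference 0.29, SE 0.110, edgeR Benjamini-Hochberg adjusted p 0.366). It too did not overlap. Pcdh7 had 34.2, 30.58 and 26.08 TPM in Lztr1 +/- cultures and 32.52, 32.46 and 28.23 TPM in wild-type cultures (log2 difference −0.07). Pcdh11x, on the X chromosome, lay at 1.70, 1.48 and 1.76 TPM in Lztr1 +/- cultures and 1.11, 2.34 and 1.34 TPM in wild-type cultures. The genotypes overlapped for both.

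Several delta-2 proteins, those of Pcdh10, Pcdh17 and Pcdh19 among them, recruit the actin-regulating WAVE complex through their tails. Pcdh18, the most abundant of them, had 73.02, 65.99 and 65.76 TPM in Lztr1 +/- cultures, against 62.77, 63.76 and 62.50 TPM in wild-type cultures. The groups were apart by a small margin (log2 difference 0.14, SE 0.056, edgeR Benjamini-Hochberg adjusted p 0.390). Pcdh19, whose human counterpart is an X-linked epilepsy gene, had 19.63, 21.14 and 19.21 TPM in Lztr1 +/- cultures and 19.62, 17.94 and 18.68 TPM in wild-type cultures (log2 difference 0.11, SE 0.067, edgeR Benjamini-Hochberg adjusted p 0.529). Xist was at 104.7, 0.03 and 0.03 TPM in the same Lztr1 +/- cultures and at 98.4, 0.02 and 95.07 TPM in the wild-type ones, so that the highest and the lowest Pcdh19 values both came from cultures without Xist. Pcdh10 had 9.22, 7.10 and 7.06 TPM in Lztr1 +/- cultures and 7.11, 9.05 and 6.30 TPM in wild-type cultures. Pcdh8, whose rat counterpart is induced by neuronal activity, had 1.54, 1.24 and 2.43 TPM in Lztr1 +/- cultures and 1.87, 2.98 and 1.70 TPM in wild-type cultures. Pcdh17 had 1.91, 1.45 and 1.72 TPM in Lztr1 +/- cultures and 1.79, 1.97 and 1.06 TPM in wild-type cultures. All 3 overlapped between genotypes. Of the other non-clustered protocadherins, Pcdh20 had 2.32, 1.56 and 1.15 TPM in Lztr1 +/- cultures and 2.51, 2.42 and 1.93 TPM in wild-type cultures, also with overlap, and Pcdh12 and Pcdh15 had means under 1 TPM. Pcdh7, Pcdh8, Pcdh10, Pcdh19, Cdh8 and the gamma gene Pcdhgc3 each overlap an annotated gene on the opposite strand. So do some other clustered genes. Whether the counting used strand is not stated, so reads of the 2 overlapping genes cannot be told apart.

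The 3 clusters on chromosome 18 were transcribed at very different levels. All 21 gamma genes had a mean of 1 TPM or more, against 7 of 22 beta genes and 1 of 14 alpha genes, Pcdhac2. The gamma genes summed to 183.5, 179 and 172.7 TPM in Lztr1 +/- cultures and 211.9, 213.8 and 182 TPM in wild-type cultures. Their means, 178.4 and 202.6 TPM, include Pcdhgc4 with means of 22.3 and 44.7 TPM, a gene whose level is uncertain as described below. Beta genes summed to 18.1, 18.37 and 15.08 TPM in Lztr1 +/- cultures and 23.07, 23.9 and 16.32 TPM in wild-type cultures. The alpha genes summed to 4.15, 2.93 and 4.17 TPM in Lztr1 +/- cultures and 5.45, 5.21 and 2.70 TPM in wild-type cultures. In each cluster the genotypes overlapped through wild-type culture 16 alone, since cultures 10 and 12 were above every Lztr1 +/- culture. Over the tested clustered genes 27 of 43 had a log2 difference below 0 with all cultures (50.4% of all tested genes did), and 36 of 48 without culture 16 (50.1%). These genes are not independent of each other, and culture 16 was left out after the data were seen, so the counts are a description only. Two-sided exact permutation tests of the sums gave p of 0.2 for gamma, 0.3 for beta and 0.6 for alpha (0.45, 0.45 and 0.6 adjusted over the 3), where 3 cultures against 3 cannot go below 0.1. The same test on CPM sums gave p of 0.5 for gamma, 0.2 for beta and 0.6 for alpha (each 0.6 adjusted). The gamma CPM sums had means of 463.1 in Lztr1 +/- and 487.2 in wild-type cultures.

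**Figure D4:**
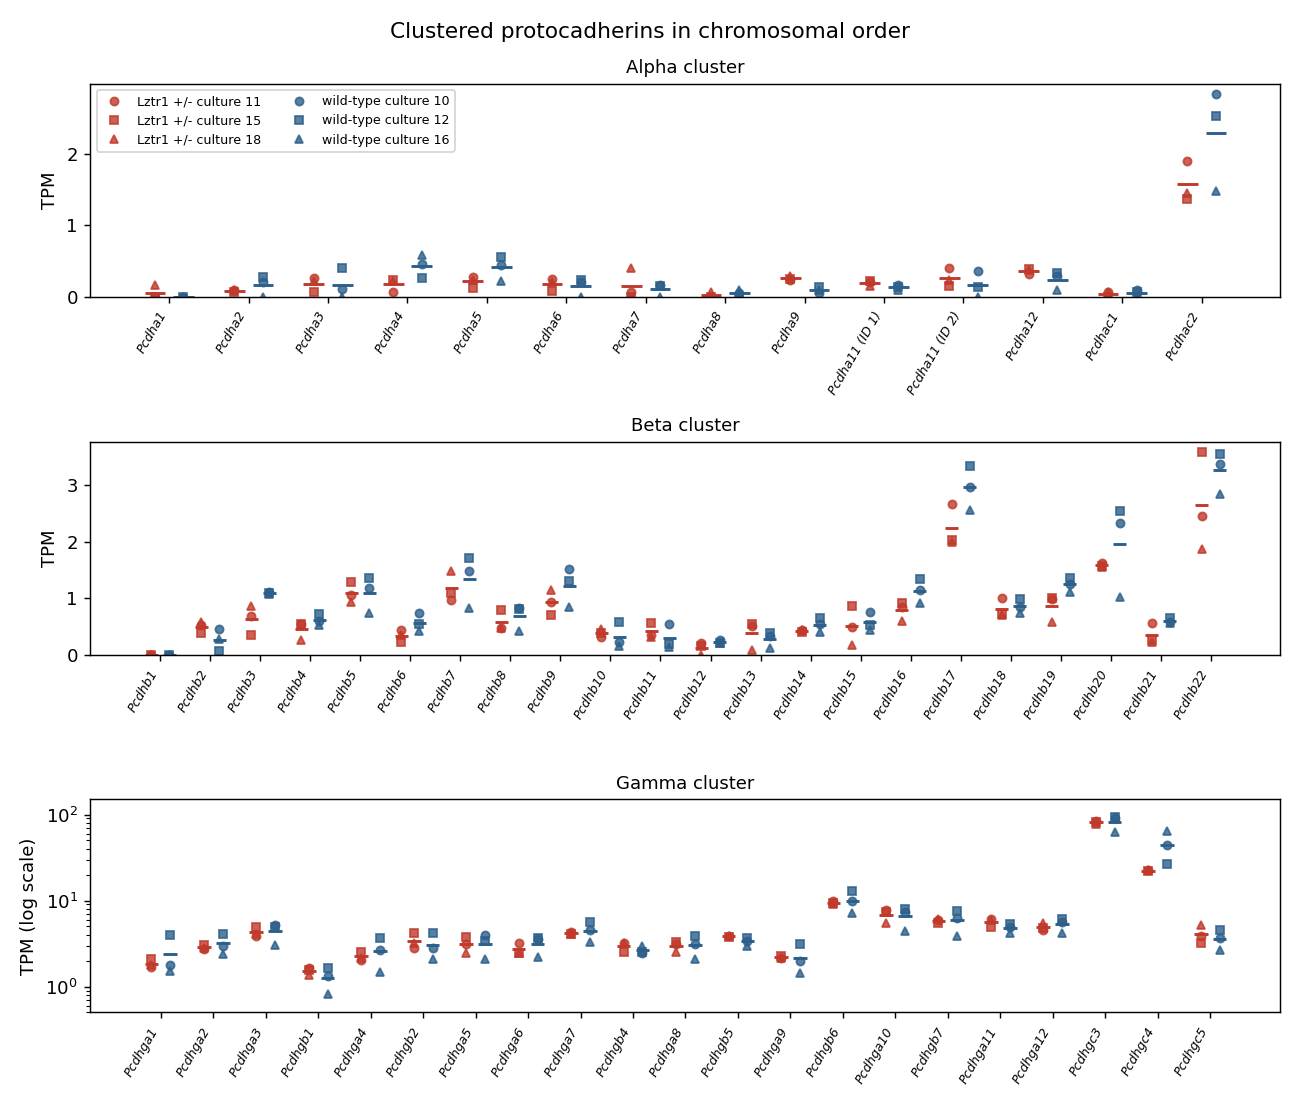
TPM of the alpha, beta and gamma protocadherins in their order along the chromosome, by culture (alpha and beta on a linear axis, gamma on a log axis); bars are genotype means, and the 2 identifiers that share the symbol Pcdha11 are both shown. Levels are highest near the end of each cluster, and Pcdhgc3 exceeds every other clustered gene.

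Within the gamma cluster the level climbed along the chromosome. Across the 21 genes, which share their last exons and are not independent, Spearman's rho between gene order and mean TPM was 0.70, and among the 18 genes of the A and B types it was 0.645. The first 9 of those 18 had a median of 3.01 TPM (1.39 to 4.35) and the last 9 a median of 5.11 TPM (2.17 to 9.70). Across alpha genes rho was 0.293 (14 genes) and across beta genes 0.379 (22 genes). Pcdhgc3, a C-type gene, was the second most abundant member, at 85.26, 81.09 and 76.94 TPM in Lztr1 +/- cultures and 90.27, 94.65 and 63.48 TPM in wild-type cultures. Its groups overlapped (log2 difference 0.01, SE 0.123). Pcdhgb6, the most abundant of the A and B types, had 9.83, 9.44 and 9.01 TPM in Lztr1 +/- cultures and 9.97, 12.75 and 7.17 TPM in wild-type cultures.

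Pcdhgc4, a C-type gene required for the survival of spinal interneurons in mice, had the lowest unadjusted p of the members that were lower in Lztr1 +/- cultures. It stood at 22.40, 22.22 and 22.39 TPM in Lztr1 +/- cultures, against 43.97, 26.45 and 63.59 TPM in wild-type cultures. The 3 Lztr1 +/- cultures were nearly equal, and the wild-type cultures spread widely above them. The log2 difference was −0.93 (SE 0.270, 95% interval −1.55 to −0.31, edgeR Benjamini-Hochberg adjusted p 0.313). It was −0.52 among cultures 10 to 12 and −1.46 among cultures 15 to 18, and it came to −0.58 without wild-type culture 16.

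Wild-type culture 16 was the highest culture for Pcdhgc4 and the lowest for 19 of the 21 gamma genes. The share of the gamma CPM assigned to Pcdhgc4 was 6.6%, 6.6% and 7.0% in Lztr1 +/- cultures, against 11.4%, 6.54% and 20.4% in wild-type cultures 10, 12 and 16. The A and B genes together had 200.1, 205.2 and 187.7 CPM in Lztr1 +/- cultures and 202, 234.9 and 150.8 CPM in wild-type cultures. Pcdhgc3 and Pcdhgc4 together had 263, 259.7 and 241.2 CPM in Lztr1 +/- cultures and 297.7, 285.1 and 262.6 CPM in wild-type cultures. Gamma transcripts share a median of 2120 bases at their 3′ ends in GENCODE M21, and 96.8% of the gamma counts above 0 were not whole, since RSEM divided reads among the genes. Exons of every gamma gene also overlap exons of same-strand genes that are not members, Pcdhgb8 among them. Those genes are outside the gamma sums, and their part in the reads was not tested. One annotated coding transcript of Pcdhgc4, 2272 bases long, shares 93.2% of its 50-base words with other members, while the 5024-base transcript shares 41.7%. RSEM's average length for the gene, 2316 to 2470 bases, is near that of the shorter one. The level of Pcdhgc4 is therefore uncertain.

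**Figure D5:**
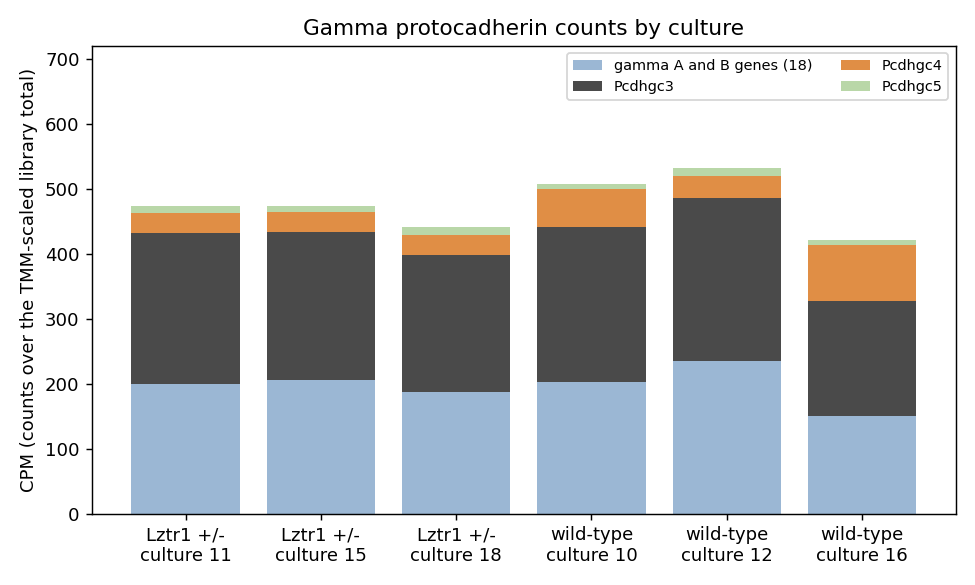
CPM values of the gamma cluster in each culture, stacked as the 18 A and B genes, Pcdhgc3, Pcdhgc4 and Pcdhgc5, with the Lztr1 +/- cultures on the left and the wild-type cultures on the right. The Pcdhgc4 block is of like size in all Lztr1 +/- cultures and in wild-type culture 12, and largest in wild-type culture 16.

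Of the 18 tested beta genes, which share little sequence with each other, 15 had a log2 difference below 0 (50.4% of all tested genes did) and their median was −0.37. Without wild-type culture 16, a comparison added after the data were seen, 16 of 20 were below 0, against 50.1% of all genes. Pcdhb22, the most abundant, had 2.46, 3.60 and 1.88 TPM in Lztr1 +/- cultures and 3.39, 3.56 and 2.85 TPM in wild-type cultures. Its TPM overlapped and its CPM values did not (log2 difference −0.53, SE 0.175, edgeR Benjamini-Hochberg adjusted p 0.325). RSEM's average length for Pcdhb22 ran between 3046 and 4134 bases, and its log2 difference was −0.28 with the length as an offset and −0.25 with limma on log2(TPM + 1). Pcdhb17 had 2.68, 2.04 and 2.0 TPM in Lztr1 +/- cultures and 2.98, 3.35 and 2.57 TPM in wild-type cultures, and Pcdhb20 had 1.63, 1.57 and 1.55 TPM in Lztr1 +/- cultures and 2.33, 2.54 and 1.02 TPM in wild-type cultures. Pcdhb17 overlapped between genotypes by little and Pcdhb20 by much. Pcdhb3 was lower in level, at 0.69, 0.34 and 0.87 TPM in Lztr1 +/- cultures and 1.11, 1.09 and 1.08 TPM in wild-type cultures, without overlap (log2 difference −0.78, SE 0.326, and −0.37 with limma on log2(TPM + 1)). In the gamma cluster 12 of 21 genes had a log2 difference above 0 with all cultures (49.6% of all tested genes did) and 5 of 21 without wild-type culture 16, so the direction of the cluster depends on that culture. Markers of cell types also leaned between genotypes. Of 12 fibroblast markers 9 had a log2 difference below 0 (background 50.4%), 4 of them at an unadjusted p under 0.05 (background 6.65%). Lum was at −0.79 (SE 0.266) and Dcn at −0.64 (SE 0.224). Lum had 47.54, 44.19 and 30.36 TPM in Lztr1 +/- cultures and 89.25, 86.23 and 41.55 TPM in wild-type cultures 10, 12 and 16. Dcn had 88.41, 86.64 and 84.91 TPM in Lztr1 +/- cultures and 169.03, 166.69 and 79.89 TPM in those wild-type cultures. For both genes cultures 10 and 12 were above every Lztr1 +/- culture and culture 16 was not. Of 9 tested muscle markers 8 were below 0 (background 50.4%). All 6 tested erythroid markers were above 0 (background 49.6%), with sums of 246.7, 433.6 and 504 TPM in Lztr1 +/- cultures and 157.2, 123.9 and 435.5 TPM in wild-type cultures. Their part in the differences of the members and of the partner lists was not tested.

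The alpha genes were near the limit of detection, and 4 of 14 were tested. Pcdhac2, a C-type gene, had 1.91, 1.37 and 1.45 TPM in Lztr1 +/- cultures and 2.85, 2.54 and 1.49 TPM in wild-type cultures, with overlap (log2 difference −0.52, SE 0.242, edgeR Benjamini-Hochberg adjusted p 0.436). Pcdha4 had 0.07, 0.23 and 0.22 TPM in Lztr1 +/- cultures and 0.46, 0.26 and 0.59 TPM in wild-type cultures, without overlap (log2 difference −1.32, SE 0.474). Pcdha5 had 0.28, 0.12 and 0.24 TPM in Lztr1 +/- cultures and 0.45, 0.56 and 0.22 TPM in wild-type cultures. The alpha transcripts share a median of 2860 bases at their 3′ ends, and 97.1% of their counts above 0 were not whole. Differences of single alpha genes are therefore uncertain.

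The spread of the expressed members between cultures of a genotype was set beside that of all expressed genes. The median coefficient of variation within a genotype was 22.6% over the 55 members at 1 TPM or more and 11.3% over all 14257 such genes. At 10 TPM or more it was 7.88% over 9 members and 8.0% over all 8768 such genes.

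Genes of the cadherins' partners were counted by list, and no list held a gene that passed the test. Of the 14 tested catenins and other partners of the classical tail, 12 had a log2 difference above 0 (49.6% of all tested genes did), with 5 higher and 1 lower in Lztr1 +/- cultures at an unadjusted p under 0.05 (background 5.56% and 6.65%) and a median of 0.14. Afdn, the afadin that links nectins to actin, had 43.32, 42.99 and 45.29 TPM in Lztr1 +/- cultures, against 38.68, 40.57 and 39.23 TPM in wild-type cultures, without overlap (log2 difference 0.31, SE 0.055, edgeR Benjamini-Hochberg adjusted p 0.305). Tjp1, the junction scaffold ZO-1, had a log2 difference of 0.20 (SE 0.058) in counts and overlapping TPM. Ctnnb1, beta-catenin, singled out after its values were seen, had 527.47, 503.14 and 538.31 TPM in Lztr1 +/- cultures and 607.38, 607.91 and 629.74 TPM in wild-type cultures; its TPM did not overlap, while its log2 difference in counts was −0.09 (SE 0.065).

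The protocadherin signalling partners, mainly WAVE-complex and focal-adhesion kinase genes, had 12 of 14 tested above 0 (49.6% of all tested genes), with 4 higher (background 5.56%) and 1 lower (background 6.65%) at an unadjusted p under 0.05. Nckap1, a WAVE-complex subunit, had 104.92, 105.12 and 103.56 TPM in Lztr1 +/- cultures, against 89.5, 95.01 and 86.84 TPM in wild-type cultures, without overlap (log2 difference 0.23, SE 0.051, edgeR Benjamini-Hochberg adjusted p 0.313). Cyfip2, of the same complex, had a log2 difference of 0.51 (SE 0.165). Of 11 tested nectins and related receptors 9 were above 0 (background 49.6%), and 0 had an unadjusted p under 0.05 (background 12.2% in either direction). Desmosomal genes had 6 of 8 above 0, also with 0 at that level, against the same backgrounds.

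Transcription factors known for switching cells between E-cadherin and N-cadherin had 2 of 11 tested above 0 (background 49.6%). Of these 11, 2 were lower at an unadjusted p under 0.05 (background 6.65%). Twist1, 1 of them, had 82.11, 81.45 and 66.14 TPM in Lztr1 +/- cultures and 101.65, 95.87 and 80.74 TPM in wild-type cultures. Its TPM overlapped narrowly and its CPM values did not (log2 difference −0.25, SE 0.104, edgeR Benjamini-Hochberg adjusted p 0.395). The second, Tcf3, had a log2 difference of −0.16 (SE 0.066). Known regulators of the clustered protocadherins, cohesin, CTCF, Smchd1 and silencing enzymes, had 9 of 19 above 0 (background 49.6%), with 4 higher and 1 lower at an unadjusted p under 0.05 (background 5.56% and 6.65%). Nipbl, the cohesin loader, had a log2 difference of 0.19 (SE 0.052), and Smchd1 also had 0.19 (SE 0.052) in counts while its TPM means had the opposite sign.

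Proteases and phosphatases of cadherin shedding and turnover had 10 of 13 above 0 (background 49.6%). At an unadjusted p under 0.05, 1 was higher and 1 lower (background 5.56% and 6.65%). Adam9 had 88.19, 97.47 and 100.97 TPM in Lztr1 +/- cultures and 69.95, 71.29 and 85.09 TPM in wild-type cultures, without overlap in TPM (log2 difference 0.35, SE 0.108, edgeR Benjamini-Hochberg adjusted p 0.321), and the membrane-type protease gene Mmp14 had a log2 difference of −0.15 (SE 0.058). The FAT, Dachsous and CELSR giant cadherins had 5 of 9 above 0 (background 49.6%), with Fat1 at 0.19 (SE 0.072) in counts and with TPM means of opposite sign. Of the other cadherin-repeat genes 2 of 6 were above 0 (background 49.6%). Cdhr4 had the lowest value, −1.11 (SE 0.399), at 1.02 to 2.91 TPM in Lztr1 +/- cultures and 2.39 to 4.16 TPM in wild-type cultures. The lists were chosen with earlier results of these data known.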

How the data were processed

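Messenger RNA libraries of 6 cultures were made from total RNA with an Illumina TruSeq kit, per the labels' protocols. The deposited tables, 1 per culture, hold RSEM gene-level estimates per the file headers, and the submitters' processing notes name RSEM 1.3.1, DESeq2 and mm10. The deposited expected counts divide reads that match several genes between them; the deposited TPM values scale these for length and library; the deposited FPKM values were not used. Aligner, annotation and strandedness of the counting are not stated there. Symbols came from GENCODE M21 and were found for 51633 identifiers and not for 193.

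Expected counts were rounded, filtered with filterByExpr (minimum count 10), scaled with TMM factors and tested over all 14652 remaining genes by edgeR 4.0.16 (quasi-likelihood test, R 4.3.3, no covariates) at a Benjamini-Hochberg adjusted p under 0.05. Levels between genes are compared in TPM; CPM are counts relative to the TMM-scaled library total. The coefficient of variation between cultures that edgeR calls biological was 11.3%, and log2 differences had a median SE of 0.114. The 11025286 to 21885101 counts per library limit the low members. No pair of cultures agreed within sampling noise (chi-square over its degrees of freedom at least 3.78). Alternatives were DESeq2 1.42.0, limma 3.58.1 on log2(TPM + 1) and log2(TPM + 0.1), other scalings and filters, length offsets, 3 added terms and each culture left out. The added terms were the run of culture numbers, the registration block and Y-linked expression. Runs of culture numbers and registration blocks are not named as batches in the labels.

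The members, lists and rules were chosen with earlier results of these data known. The text names every non-clustered member at a mean of 1 TPM or more and the 3 highest of each cluster. It also names the 5 members of lowest unadjusted p in each direction, members that passed the test and the lineage cadherins. Up to 2 genes per partner list are named as well. Ctnnb1 and the markers Lum, Dcn, Krt19, Cldn7, Ocln and Trp63 were named after their values were seen. Promoter windows are RefSeq's on GRCm38.p6; CCAAT and GGGCGG were chosen after the sequences were seen.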

Additional observations from a re-analysis of the deposited data

How the results depend on the processing

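The number of genes called was 1 by edgeR, 112 by DESeq2, 32 with no low-count filter, 0 with the effective length offset and 0 to 896 with 1 culture left out, where the highest count came without wild-type culture 16. Members called were 0, but 1 with DESeq2 and 0 to 1 with 1 culture left out (Cdh2, without wild-type culture 16). The median log2 difference of the tested members, −0.04, ranged between −0.13 and 0.13 with 1 culture left out and was 0.13 without wild-type culture 12. Of 586 alternative values over 37 named genes, 537 kept direction and call, 8 lost the call (all of Lztr1, whose log2 difference stayed between −1.06 and −0.91), 2 gained it (both of Cdh2) and 39, over 12 genes, reversed; the cause was not tested. Log2 differences of reversed sign were, with library totals alone, −0.019 for Pcdhgc3; with Y-linked expression as a term, −0.016 for Pcdhgc3, 0.085 for Cdh10, −0.049 for Cdh1 and −0.018 for Cdh17; with the length offset, −0.0019 for Pcdhgc3 and 0.091 for Pcdh10. With limma on log2(TPM + 1) they were −0.0095 for Pcdhgc3 and 0.055 for Pcdh10, and on log2(TPM + 0.1) −0.0094 for Pcdhgc3, 0.062 for Pcdh10 and −0.0029 for Cdh5. With the run of culture numbers as a term they were 0.065 for Pcdhgb6, 0.013 for Cdh10, 0.078 for Pcdh10, −0.10 for Cdh1 and −0.090 for Cdh17. With 1 culture left out, values ranged between −0.13 and 0.11 for Pcdhgc3, −0.18 and 0.023 for Pcdh7, −0.20 and 0.14 for Pcdhgb6, −0.23 and 0.069 for Cdh10, −0.0095 and 0.32 for Cdh6, −0.21 and 0.10 for Pcdh10, −0.081 and 0.43 for Cdh1, −0.092 and 0.25 for Pcdh17, −0.084 and 0.23 for Pcdh11x, −0.39 and 0.73 for Cdh5, −0.040 and 0.44 for Cdh17, and −0.086 and 0.37 for Cdh23. No paired analysis was possible because the genotypes share no culture number. Depth limits the 21 members left untested, all under 1 TPM, and the reads that RSEM divided among alpha and gamma genes.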
